A study of Mus musculus with 8 samples.

Results

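The clock output transcription factors were taken as 9 genes, *Dbp*, *Tef*, *Hlf*, *Nfil3*, *Bhlhe40*, *Bhlhe41*, *Klf9*, *Klf10* and *Klf15*, out of 21900 mouse protein-coding genes. Their ERRα-bound intervals were those that the authors' annotation assigned to one of these gene names, in any of 4 peak lists, with the centre of the interval within ±20 kb of the transcription start site (TSS). This gave 78 intervals of 63890 within ±20 kb of a TSS, and of 126927 in the lists at any distance. The nuclear receptor ERRα had been immunoprecipitated from skeletal muscle (gastrocnemius and soleus) or liver of male C57BL/6N mice, 2 to 3 months old, sacrificed at zeitgeber time 9. The WT mice carried unmutated ERRα, and their littermates carried the ERRα 3SA phospho-mutant, a form whose phosphorylation sites in the amino-terminal domain are mutated (3SA below). Muscle was pooled from 5 mice and liver from 2 mice of a genotype. Each genotype and tissue had 1 library and 1 peak list, so no difference between lists has a replicate check and no p-value is given. Whole tissue was used, so fibers, hepatocytes and other cells contribute to a list in unknown shares.

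These genes pass circadian time on from the core clock to metabolism. DBP, TEF and HLF are activators of the PAR bZIP family, which bind the D-box, and NFIL3 (also called E4BP4) represses through that element. BHLHE40 and BHLHE41 (DEC1 and DEC2) repress transcription from the E-box, the element used by CLOCK and BMAL1. KLF9, KLF10 and KLF15 are Krüppel-like zinc finger factors whose levels cycle in liver or muscle, with KLF15 known for the control of amino acid and glucose metabolism. ERRα binds the ERR response element (ERRE), written here as TCAAGGTCA.

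The lists held 25427 intervals in WT muscle, 50647 in 3SA muscle, 21813 in WT liver and 29040 in 3SA liver. They carry no read numbers, so the depth behind an interval is unknown. The deposited score of an interval is a whole number of at least 30 that ranks it within its own list only. A rank is also given as a top percentage of the list, and tied intervals share the best rank of the tie. Low percentages are therefore not on 1 scale. The weakest intervals within ±20 kb stood at the top 66.4% in WT muscle and 64.8% in 3SA muscle, but at 99.9% and 99.5% in WT and 3SA liver. Of 10 abundant muscle genes, 8 in WT and 10 in 3SA had an interval within ±20 kb in muscle, against 4 and 7 in liver. Of 10 liver genes, 7 in WT and 8 in 3SA had one in liver, against 3 and 6 in muscle. Each list thus had intervals at more marker genes of its own tissue than of the other, in 3SA liver only by 8 against 7. Over all protein-coding genes, the shares with an interval were 34.5% and 47.9% in WT and 3SA muscle, and 29.9% and 37.7% in WT and 3SA liver.

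ERR elements stood near the centres of 16 of the 78 intervals, beside 12.3% of all intervals within ±20 kb of a TSS. These 16 intervals lay at 7 of the 9 genes. No share over all genes is given, and a gene with more intervals offers more places for an element. The centre of an interval is not its summit, which the lists do not give, so distances from the centre do not measure distances from the point of highest signal. In the 300 bp around the centres, 8 different places held TCAAGGTCA or its extended form TNAAGGTCA, in which N is any base, on either strand. They are shown 5′ to 3′ along the strand of the match, with the element in capitals and 10 bases to each side, since the results below refer back to them.
Dbp, chr7:45703201-45703229, plus strand: cagagtaagtTCAAGGTCAgcctgggcta
Tef, chr15:81813064-81813092, plus strand: agatggtttcTCAAGGTCAcatgggtggg
Tef, chr15:81813303-81813331, plus strand: gaccactagtTCAAGGTCAtcctctgatg
Nfil3, chr13:52970553-52970581, plus strand: cccaagaatgTCAAGGTCAtacaaggttc
Bhlhe40, chr6:108659099-108659127, plus strand: ccttgtaaatTCAAGGTCAaaatccgtgt
Klf9, chr19:23143567-23143595, minus strand: agagccctacTAAAGGTCAcaccccccca
Klf10, chr15:38297628-38297656, plus strand: tgggactgtcTGAAGGTCAggcgtccctg
Klf15, chr6:90481599-90481627, plus strand: ttattttagtTCAAGGTCAaaatgatgac
The exact ERRE made up 6 of the 8, and the elements at *Klf9* and *Klf10* had another base at the second position. The *Nfil3* element lay in the central 300 bp of the intervals of 4 lists and the *Bhlhe40* element in 3. Positions are on GRCm38 (mm10), 1-based, with the letters from RefSeq's copy of that build.

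In each list, at least 8 of the 9 genes had an interval. In muscle, 8 of the 9 had an interval within ±20 kb in WT and 8 in 3SA, beside 34.5% and 47.9% of all protein-coding genes. In liver, the numbers were 8 in WT and 9 in 3SA, beside 29.9% and 37.7%. The gene without an interval was *Hlf* in WT muscle, *Klf10* in 3SA muscle and *Bhlhe41* in WT liver, a different one each time. Scores of at least 50 were held by 2 of the 17 intervals in WT muscle and 6 of the 22 in 3SA muscle. In liver they were held by 8 of the 13 in WT and 9 of the 26 in 3SA. These lay at 2 genes in WT muscle, 5 in 3SA muscle, 6 in WT liver and 7 in 3SA liver. The lists differ in such scores as a whole. Of all intervals within ±20 kb, 18.2% and 17.7% reached 50 in WT and 3SA muscle, and 42.3% and 47.4% in WT and 3SA liver. The share of all genes at that score is not given. At any score, the intervals numbered 17 in WT and 22 in 3SA muscle, and 13 in WT and 26 in 3SA liver. For comparison, the lists held 12999 and 23571 intervals within ±20 kb of any TSS in muscle, and 11216 and 16104 in liver. *Klf15* alone carried 23 of the 78, *Tef* 13, *Dbp* 9, *Nfil3* and *Klf10* 8 each, *Hlf* and *Klf9* 5 each, *Bhlhe40* 4 and *Bhlhe41* 3. The intervals varied in width from 244 to 2029 bp.

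**Figure D1:**
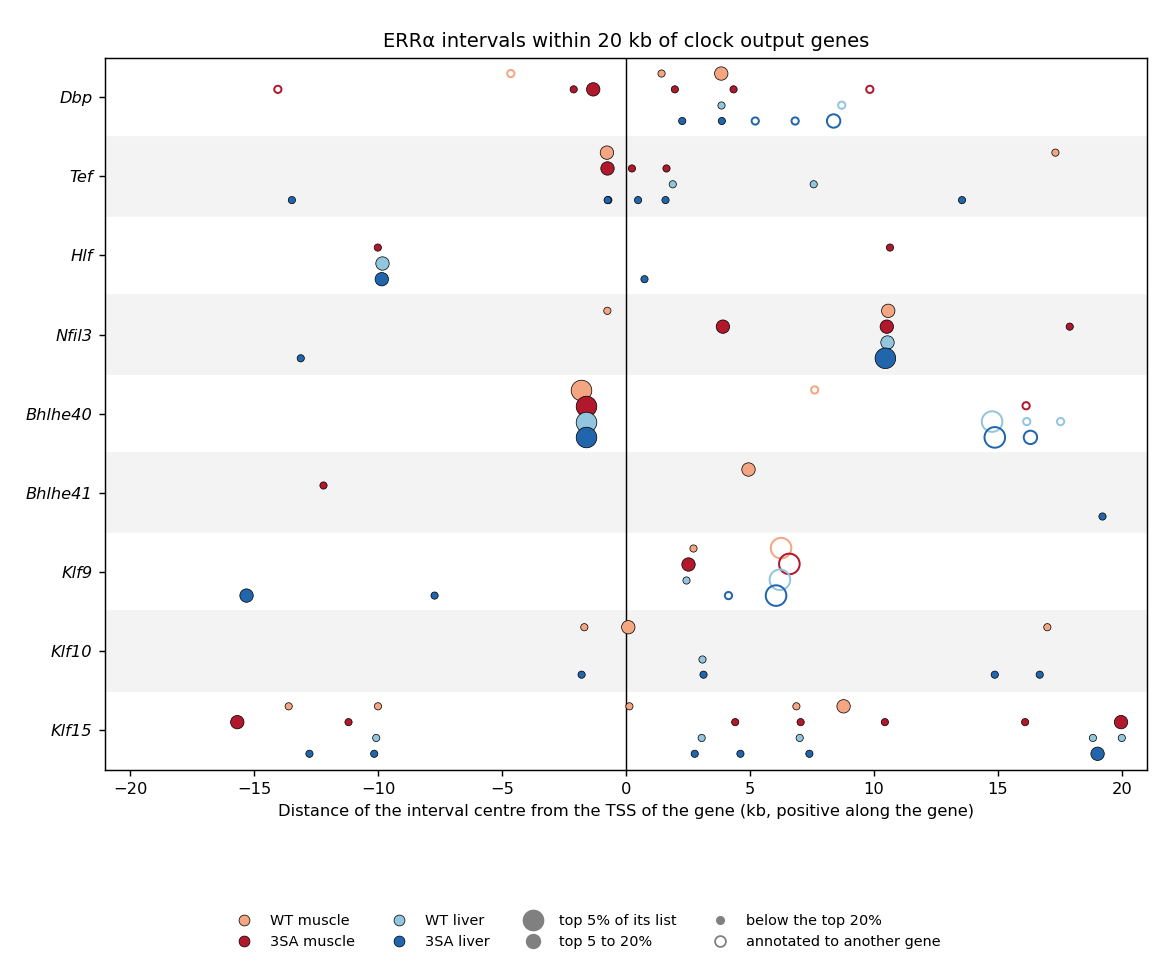
Positions of the ERRα intervals around the TSS of each gene (distance of the interval centre in kb, positive along the gene; for *Tef*, from the nearer of its 2 starts), with a row of points for each of the 4 lists and 1 library behind each list. Filled points are annotated to the gene, open points to another gene, and larger points rank higher in their list: the points of *Bhlhe40* at 1600 to 1806 bp upstream line up in all 4 lists, whereas those of *Bhlhe41* lie at 3 different places.

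The genes differed in how highly their intervals ranked. Among intervals annotated to them within ±20 kb, *Bhlhe40* had the best ranked one in WT muscle, 3SA muscle and WT liver. In 3SA liver *Nfil3* stood just ahead of it, at the top 2.75% against 2.84%. Scores of at least 100 were held by 1 of the 9 genes in WT muscle and 1 in 3SA muscle, *Bhlhe40* in each, by 3 in WT liver (*Hlf*, *Nfil3* and *Bhlhe40*) and by 5 in 3SA liver (these 3, *Klf9* and *Klf15*). Over all protein-coding genes, the shares with such an interval were 2.87% and 5.49% in WT and 3SA muscle, and 8.02% and 11.9% in WT and 3SA liver. The median rank of the intervals was the top 24.6% in WT muscle and 38.7% in 3SA muscle, beside 40.2% and 38.7% over all intervals within ±20 kb. In liver it was the top 32.6% in WT and 53.4% in 3SA, beside 45.2% and 44.8%. Counted by annotated name, scores of at least 100 were thus held by most genes in 3SA liver and a minority in the other 3 lists. This count leaves out, among others, an interval in the *Klf9* intron that was annotated to the microRNA gene *Mir1192*. It scored 375 in WT muscle, 641 in 3SA muscle, 627 in WT liver and 794 in 3SA liver.

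**Figure D2:**
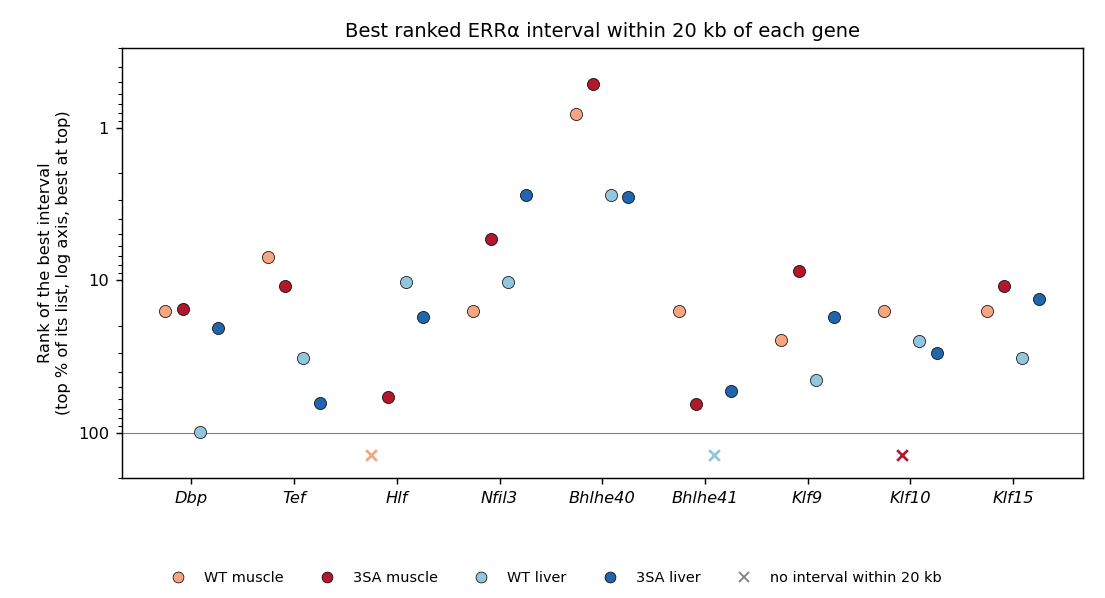
Rank of the best ERRα interval annotated to each gene within ±20 kb, as a top percentage of its own list (log axis, best ranks at the top). Each point is 1 list, and crosses mark a gene with no such interval. *Bhlhe40* lies between 0.519% and 2.84% in the 4 lists, and *Dbp* ranges from 15.5% in 3SA muscle to 99.5% in WT liver.

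*Dbp*, whose protein is the D-box binding protein itself, had 9 intervals at 6 sites, where a site joins intervals of different lists whose centres lie within 300 bp. The site found in most lists lay in the 3′ part of the gene, 3833 to 3868 bp downstream of the TSS, at a place annotated as the transcript end of the neighbouring gene *Sphk2*. It was called in WT muscle (chr7:45708871-45709312, rank 4057, top 16%), in WT liver (chr7:45708946-45709215, rank 21701, top 99.5%) and in 3SA liver (chr7:45708918-45709312, rank 5979, top 20.6%). The WT liver interval was thus among the weakest of its list. Ranks such as 4057 in WT muscle are ties, shared there by 1711 intervals with a score of 49. In 3SA muscle, the best interval lay elsewhere, 1320 bp upstream in an intron of *Car11* (chr7:45703730-45704124, rank 7851, top 15.5%). Another 3SA muscle interval, 2108 bp upstream, held the ERRE shown above at 76 bp from its centre, with rank 19604. An interval of 3SA muscle and one of 3SA liver in intron 2 of *Dbp*, 1973 and 2270 bp downstream, each covered the same CACGTG (E-box), outside their central 300 bp. In liver the genotypes shared the site at the transcript end of *Sphk2*. Within ±20 kb of the *Dbp* TSS, every list also had at least 1 interval annotated to a neighbouring gene. The best ranked of these in liver carried the name *Sphk2*. They lay 8702 bp downstream of the *Dbp* TSS in WT (rank 6074, top 27.8%) and 8376 bp downstream in 3SA (rank 3426, top 11.8%). In muscle no *Dbp* centres lay within 300 bp, but both WT intervals shared bases with a 3SA interval. The interval 1436 bp downstream in WT (chr7:45706502-45706864) overlapped the 3SA one in intron 2 (chr7:45706649-45707791), and the WT interval at the transcript end overlapped a 3SA one centred 4341 bp downstream (chr7:45709095-45710082, rank 19604).

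*Tef*, the thyrotroph embryonic factor, had 13 intervals at 8 sites, spread over a gene with 2 annotated starts, at 81802673 and 81811414 on chromosome 15. The strongest place was the promoter of the downstream start. There, WT muscle had an interval 767 bp upstream (chr15:81810148-81811147, rank 1805, top 7.10%), and 3SA muscle had one 744 bp upstream (chr15:81810504-81810837, rank 5574, top 11%). The 3SA liver list had a weak interval at this place, 738 bp upstream (rank 18865, top 65.0%), and WT liver had none. The first intron was bound in both livers. There, WT liver had an interval 1889 bp downstream (chr15:81812991-81813616, rank 7108, top 32.6%) and 3SA liver one 1596 bp downstream (chr15:81812620-81813401, rank 18645, top 64.2%). A 3SA muscle interval joined them, 1635 bp downstream, with rank 32824 and the lowest score that the list holds. Each of these 3 intervals covered both *Tef* elements printed above. The *Tef* promoter was shared by the genotypes in muscle and the intron site in liver.

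*Hlf*, the hepatic leukemia factor, had the highest liver ranks of the PAR bZIP genes, among intervals annotated to these genes within ±20 kb. Within ±20 kb, its best ranked site in each list that had one lay upstream, between genes. It was called in WT liver 9838 bp from the TSS (chr11:90400461-90401049, rank 2244, top 10.3%) and in 3SA liver at 9848 bp (chr11:90400490-90401040, rank 5086, top 17.5%). In 3SA muscle, the site appeared at 10008 bp (chr11:90400637-90401214), with rank 29571 in the top 58.4%. WT muscle had no interval within ±20 kb. The site thus appeared in both livers with a high rank and in muscle only from the lower part of a list. None of the motifs searched was found in the central 300 bp of the intervals of this upstream site. An extended ERR element stood in an intronic *Hlf* interval beyond ±20 kb, given at the end.

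*Nfil3*, the repressor that opposes the PAR bZIP activators, had 8 intervals at 5 sites, and 1 of these was found in all 4 lists. This site lay in the first intron, 10464 to 10579 bp downstream of the TSS. In muscle it was called at chr13:52970153-52970767 in WT (rank 4057, top 16%) and at chr13:52970112-52970925 in 3SA (rank 2721, top 5.37%). In liver it was called at chr13:52970192-52970854 in WT (rank 2244, top 10.3%) and at chr13:52970181-52970970 in 3SA (rank 799, top 2.75%). The 3SA list placed the site higher than the WT list in both tissues, by ranks of libraries that have no replicate. The central 300 bp of the highest ranked interval, chr13:52970426-52970725 on the plus strand, with the ERRE in capitals, is
Nfil3 intron: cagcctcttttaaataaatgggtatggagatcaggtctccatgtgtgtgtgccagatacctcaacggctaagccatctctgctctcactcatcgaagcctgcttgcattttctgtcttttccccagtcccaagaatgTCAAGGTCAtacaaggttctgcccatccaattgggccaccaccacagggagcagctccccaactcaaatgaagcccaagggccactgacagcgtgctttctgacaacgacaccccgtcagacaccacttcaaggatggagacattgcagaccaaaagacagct
The ERRE lay 8 bp from the centre of that interval and up to 107 bp from the centre in the other lists. The remaining *Nfil3* intervals were each called in a single list, such as 3SA muscle 3910 bp downstream (rank 7851) and WT muscle at the promoter, 750 bp upstream (rank 16894, the lowest score of its list).

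*Bhlhe40* had exactly 1 interval within ±20 kb in each list, at a common site upstream of the gene. The site lies in the first intron of the non-coding gene 0610040F04Rik. In muscle, it was called at chr6:108658136-108659511 in WT, 1806 bp upstream of the *Bhlhe40* TSS (rank 206, top 0.810%), and at chr6:108658509-108659550 in 3SA, 1600 bp upstream (rank 263, top 0.519%). In liver, it was called at chr6:108658538-108659481 in WT, 1620 bp upstream (rank 605, top 2.77%), and at chr6:108658437-108659602 in 3SA, 1610 bp upstream (rank 826, top 2.84%). Among intervals annotated to the 9 genes within ±20 kb, it ranked highest in each muscle list and in WT liver. By top percentage the 3SA muscle interval stood highest, and by rank number the WT muscle interval did. The central 300 bp of the 3SA muscle interval, chr6:108658880-108659179 on the plus strand, with the ERRE in capitals, is
Bhlhe40 upstream: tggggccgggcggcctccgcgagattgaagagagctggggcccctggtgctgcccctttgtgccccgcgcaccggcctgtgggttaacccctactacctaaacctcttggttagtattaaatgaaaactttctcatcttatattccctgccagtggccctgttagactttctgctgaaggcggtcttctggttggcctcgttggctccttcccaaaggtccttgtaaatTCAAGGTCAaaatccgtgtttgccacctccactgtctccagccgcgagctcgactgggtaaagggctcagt
The ERRE lay 84 to 104 bp from the centres of the 3SA muscle, WT liver and 3SA liver intervals. In the wider WT muscle interval it lay 290 bp from the centre, outside the central 300 bp. Every one of the 4 intervals also covered a CACGTG further towards the gene, 416 to 622 bp from their centres.

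More binding lay near *Bhlhe40* than its name in the lists shows. Of the intervals within ±20 kb of its TSS, 1 in WT muscle, 1 in 3SA muscle, 3 in WT liver and 2 in 3SA liver were annotated to 0610040F04Rik. The strongest was called in WT liver 14768 bp downstream of the *Bhlhe40* TSS (chr6:108674819-108675975, rank 864, top 3.96%) and in 3SA liver 14877 bp downstream (chr6:108674892-108676120, rank 505, top 1.74%). Muscle had no interval at that position. *Bhlhe41*, the paralog of *Bhlhe40*, had 3 intervals in all, each in 1 list and at another place. They lay in the 3′ UTR, 4907 bp downstream, in WT muscle (chr6:145860346-145860680, rank 4057, top 16%), 12231 bp upstream in 3SA muscle (chr6:145877377-145877926, rank 32824, top 64.8%) and 19212 bp downstream in 3SA liver (chr6:145846076-145846341, rank 15499, top 53.4%). The 3SA muscle interval had the lowest score of its list and covered a TCAAGGTCA, 204 bp from its centre. The paralogs thus differed in rank, in number of lists per site and in position.

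*Klf9*, a glucocorticoid-responsive repressor, had a site in its only intron, annotated to *Klf9*, in 3 lists. It was called in WT muscle 2685 bp downstream of the TSS (chr19:23143646-23144177, rank 6260, top 24.6%), in 3SA muscle at 2485 bp (chr19:23143489-23143933, rank 4392, top 8.67%) and in WT liver at 2407 bp (chr19:23143501-23143765, rank 9851, top 45.2%). The 3SA liver list had 2 upstream intervals instead, at 15303 bp (chr19:23125784-23126062, rank 5109, top 17.6%) and at 7719 bp (rank 18865). An extended ERR element stood in the central 300 bp of the 3SA muscle and WT liver intervals and outside the WT muscle interval. The 3SA muscle sequence, chr19:23143562-23143861 on the plus strand, with the element in capitals as read on that strand, is
Klf9 intron: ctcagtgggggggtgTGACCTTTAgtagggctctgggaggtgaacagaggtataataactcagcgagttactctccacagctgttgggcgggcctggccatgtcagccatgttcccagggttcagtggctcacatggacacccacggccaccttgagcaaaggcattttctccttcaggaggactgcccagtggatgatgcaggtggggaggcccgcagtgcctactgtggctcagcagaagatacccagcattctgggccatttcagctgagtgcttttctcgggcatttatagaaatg

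The strongest binding inside *Klf9* carried another gene's name. About 6 kb downstream of the TSS, in the same intron, every list had an interval that was annotated to the microRNA gene *Mir1192* and so was not among the 78. In muscle it was called at chr19:23147149-23147815 in WT, 6256 bp from the *Klf9* TSS (rank 216, top 0.849%), and at chr19:23147011-23148623 in 3SA, at 6591 bp (rank 200, top 0.395%). In liver it was called at chr19:23146886-23147987 in WT, at 6210 bp (rank 269, top 1.23%), and at chr19:23146795-23147766 in 3SA, at 6054 bp (rank 302, top 1.04%). These ranks were ahead of every interval annotated to *Klf9* within ±20 kb and, except in WT muscle, ahead of the *Bhlhe40* site. The central 300 bp in WT muscle, chr19:23147333-23147632 on the plus strand, holds the ERRE on the minus strand, in capitals here as read on the plus strand.
Klf9 intron, Mir1192 interval: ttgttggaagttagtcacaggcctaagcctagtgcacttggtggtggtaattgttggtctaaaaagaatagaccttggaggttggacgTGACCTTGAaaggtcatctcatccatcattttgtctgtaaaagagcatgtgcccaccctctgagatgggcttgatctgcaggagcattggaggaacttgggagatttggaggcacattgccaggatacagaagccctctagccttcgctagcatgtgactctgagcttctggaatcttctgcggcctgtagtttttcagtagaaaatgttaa
The same ERRE stood in the central 300 bp in WT liver and 3SA liver, and inside the 3SA muscle interval but away from its centre. The choice of members by gene name therefore understates the binding within *Klf9*.

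**Figure D3:**
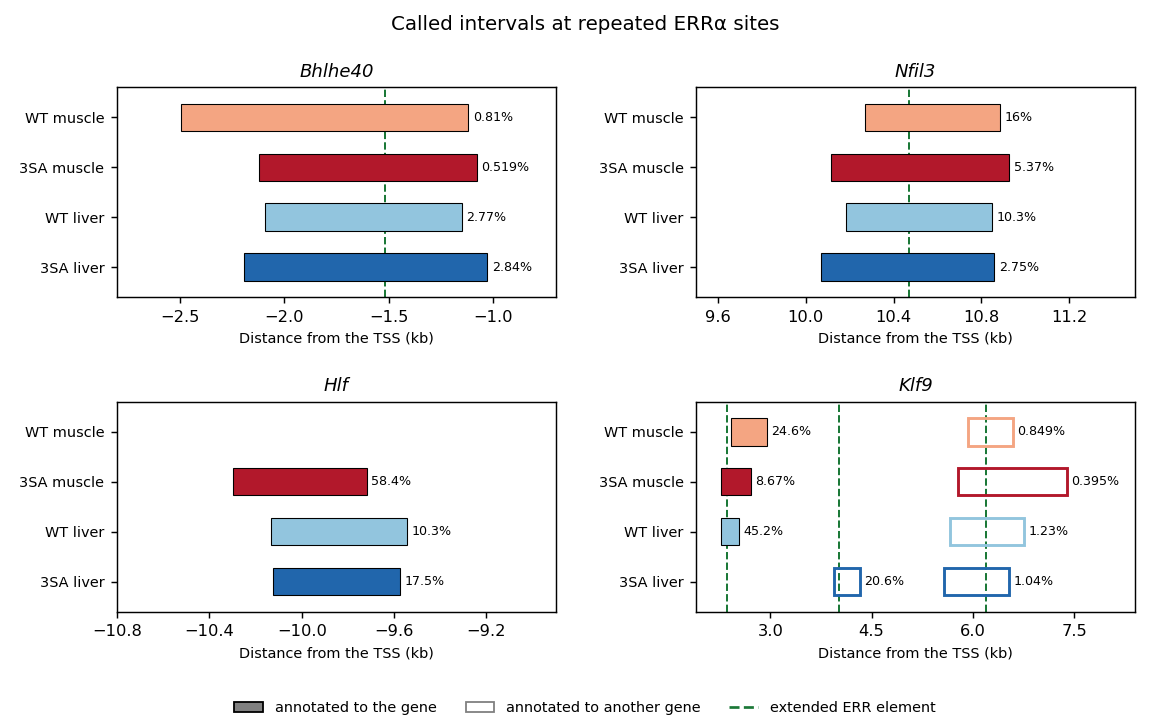
Called intervals at 4 loci, drawn to scale against the distance from the TSS (kb), with 1 bar for each interval of a list and its top percentage beside it; dashed lines mark the extended ERR elements. The *Bhlhe40* and *Nfil3* bars overlap in all 4 lists around an element, the *Hlf* bars lack one, and the open bars in the *Klf9* intron, annotated to *Mir1192*, reach the top 0.395% to 1.23%.

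*Klf10*, an early response gene of TGF-β signaling, showed no site in both genotypes of muscle. WT muscle had 3 intervals: at the promoter, 94 bp downstream of the TSS (chr15:38300454-38300781, rank 4057, top 16%), 1679 bp upstream (rank 9617) and 16996 bp downstream (rank 6260). In 3SA muscle no interval fell within ±20 kb, and the nearest lay 22872 bp upstream, with rank 19604. In liver, the 1 WT interval and the best of the 4 3SA intervals formed a shared site, annotated to exon 2 in WT and to intron 2 in 3SA, at 3082 bp in WT (chr15:38297386-38297873, rank 5512, top 25.3%) and 3129 bp in 3SA (chr15:38297291-38297874, rank 8754, top 30.1%). The central 300 bp of both held the extended element shown above and a TTATGTAA, the D-box, which was found in 0.713% and 0.695% of all WT and 3SA liver windows. The count of *Klf10* intervals was higher in WT muscle than in 3SA muscle and lower in WT liver than in 3SA liver.

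*Klf15* had the most intervals, 23 at 15 sites, of which 9 were called in a single list. None ranked in the top 10% of its list. In muscle, the best intervals of the genotypes lay apart, at 8778 bp downstream in WT (chr6:90471208-90471601, rank 4057, top 16%) and 19969 bp downstream in 3SA (chr6:90482342-90482849, rank 5574, top 11%). The only site they shared lay in intron 2, at 6875 bp in WT (chr6:90469328-90469675, rank 10219, top 40.2%) and 7046 bp in 3SA (chr6:90469010-90470334, rank 19604, top 38.7%). In liver the genotypes shared 3 sites. A site about 10 kb upstream was called at 10073 bp in WT (chr6:90452318-90452788, rank 9663, top 44.3%) and 10154 bp in 3SA (chr6:90452038-90452906, rank 6120, top 21.1%). A site in intron 1 was called at 3054 bp in WT (chr6:90465421-90465939, rank 7108, top 32.6%) and 2774 bp in 3SA (chr6:90465219-90465581, rank 13000, top 44.8%). The third shared liver site, annotated as intergenic, was called downstream at 18835 bp in WT (chr6:90480826-90482096, rank 8204, top 37.6%) and 19023 bp in 3SA (chr6:90480906-90482393, rank 3862, top 13.3%). It held the ERRE, 36 bp from the centre in 3SA and 152 bp from it in WT. The WT muscle list alone had a broad interval over the TSS, 2029 bp wide (rank 10219), which covered CACGTG 5 times, none in its central 300 bp.

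The genotypes were next compared by intervals whose centres lay within 300 bp. In muscle, 5 of the 17 WT intervals had a 3SA partner, or 29.4% (95% Wilson interval 13.3–53.1), beside 23.4% of all WT intervals within ±20 kb. Of the 22 intervals of 3SA muscle, 5 had a WT partner, or 22.7% (10.1–43.4), beside 12.9%. In liver, 9 of 13 WT intervals had a partner, or 69.2% (42.4–87.3), beside 49.1%, and 9 of 26 of 3SA, or 34.6% (19.4–53.8), beside 34.2%. The Wilson intervals cover counting error only, and for each list the share over all intervals lay within that of the 9 genes. They treat the intervals of a list as independent, although many belong to the same gene. *Klf15* alone held 5 of the 17, 7 of the 22, 5 of the 13 and 6 of the 26.

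**Figure D4:**
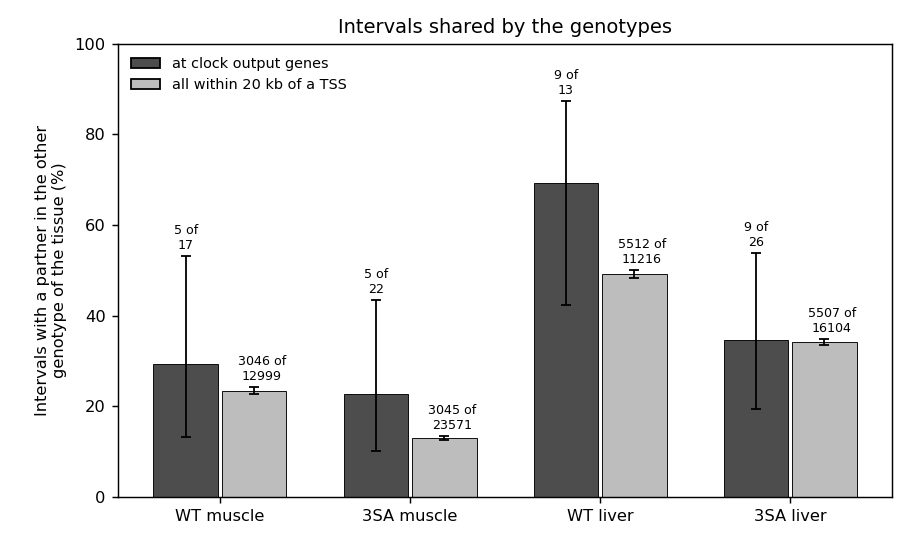
Share of the intervals of each list with a partner in the other genotype of the tissue (%), for the clock output genes (dark bars) and for all intervals within ±20 kb of a TSS (light bars), with 95% Wilson intervals and the counts above the bars. The dark error bars, from 13 to 26 intervals a list, span the light bars in all 4 lists.

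By gene, a site common to WT and 3SA was present at 5 of the 9 genes in muscle (*Tef*, *Nfil3*, *Bhlhe40*, *Klf9* and *Klf15*), beside 10.4% of all protein-coding genes. In liver it was present at 7 (*Dbp*, *Tef*, *Hlf*, *Nfil3*, *Bhlhe40*, *Klf10* and *Klf15*), beside 17.3%. More of the 9 genes were bound in both genotypes at some place, namely 7 in muscle and 8 in liver, beside 25.6% and 22.7% of protein-coding genes. A site in all 4 lists was present at *Nfil3* and *Bhlhe40*, so 2 of 9, beside 5.30% of protein-coding genes. Joined over the lists, the 78 intervals formed 50 sites, of which 33 were in 1 list, 8 in 2, 7 in 3 and 2 in 4. Over all 49659 sites within ±20 kb of a TSS, 80.8% were in 1 list. Muscle had 34 sites, with 5 in both genotypes, 12 in WT alone and 17 in 3SA alone, where over all muscle sites the shares were 9.56%, 29.4% and 61.1%. Liver had 30 sites, with 9 in both, 4 in WT alone and 17 in 3SA alone, where over all liver sites the shares were 26%, 25.7% and 48.3%. Sites found in both tissues numbered 14 of the 50. Over all 49659 sites, 33375 were found in muscle and 21683 in liver, and the number in both is not given. The 3SA lists are longer than the WT lists in both tissues. When the 3SA muscle list was restricted to as many top-scoring intervals as the WT list holds, 11 of its 22 intervals at these genes were left, fewer than the 17 of WT. The 3SA liver list restricted in the same way kept 22 of 26, more than the 13 of WT. Both cuts fell inside ties, of 9967 intervals at rank 19604 in 3SA muscle and 3714 at rank 18865 in 3SA liver. The numbers left therefore depend on how the ties were broken. No share over all intervals is given for these cuts.

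By annotation, of the 78, 34 lay in introns, 27 between genes, 6 at promoters, 5 in exons, 3 in a 3′ UTR and 3 at transcript ends. Within 5 kb of the TSS lay 58.8% of the WT and 50% of the 3SA muscle intervals, beside 50.5% and 42.8% over all, and 46.2% of each liver list, beside 48.1% and 49.4%. Within 1 kb lay 23.5% of the WT and 9.09% of the 3SA muscle intervals, beside 26.2% and 17.4%, and 0 of the 13 WT and 15.4% of the 3SA liver intervals, beside 20.6% and 22.6%. Intergenic intervals made up 29.4% and 31.8% in WT and 3SA muscle, beside 24.2% and 27.6%, and 30.8% and 42.3% in WT and 3SA liver, beside 29.1% and 27.6%. Upstream intervals numbered 28 and downstream intervals 50. Over all intervals within ±20 kb, upstream ones made up 36.9% and 38.6% in WT and 3SA muscle, and 41.5% and 40.5% in WT and 3SA liver. A repeat was the detailed annotation of 10 of the 78, such as the *Tef* intron site in WT liver (an ID_B1 element). Over all intervals within ±20 kb, the share in a repeat was 16.9% and 19.7% in WT and 3SA muscle, and 25% and 22.6% in WT and 3SA liver. These differences rest on 13 to 26 intervals a list and were not tested.

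The ERRE was found in the central 300 bp of 12 of the 78 intervals, at *Dbp*, *Tef*, *Nfil3*, *Bhlhe40* and *Klf15*. By list it was 1 of 17 in WT muscle and 4 of 22 in 3SA muscle, beside 4.45% and 4.86% of all windows within ±20 kb, and 3 of 13 in WT liver and 4 of 26 in 3SA liver, beside 15.2% and 14.9%. The same genomic element is counted again in each list that calls it. With TNAAGGTCA the number was 16 of 78, beside 12.3% of all windows. CACGTG was found in 1 window, at the *Nfil3* promoter in WT muscle, beside 5.50% of all windows, TTATGTAA in 2, beside 0.524%, and the ROR element ANTAGGTCA in 0, beside 0.606%. Each motif was searched on both strands, and every TCAAGGTCA is also a TNAAGGTCA.

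Lists of related genes gave a scale for these counts. Of 13 core clock genes, 9 in WT muscle, 8 in 3SA muscle, 7 in WT liver and 13 in 3SA liver had an interval within ±20 kb. A site common to the genotypes stood at 5 of them in muscle and 6 in liver, and a site in all 4 lists at 4. Of the 14 other Krüppel-like factor genes, an interval was present at 5 and 8 in WT and 3SA muscle and 6 and 7 in WT and 3SA liver, with a site common to the genotypes at 1 in muscle and 2 in liver and none in all 4 lists. Since 1 list stands for each condition, these differences between gene lists were not tested.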

How the data were processed

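ERRα ChIP-seq peak lists of muscle and liver from WT and 3SA mice were used, 1 per genotype and tissue. The 4 input samples hold no values used here. Per the labels, 3 ChIPs were pooled per library. The authors trimmed reads (Trimmomatic 0.36), mapped them to mm10 (BWA 0.7.12), removed duplicates (Picard 2.0.1), called peaks against input (MACS2 2.1.1.20160309) and annotated them (HOMER 4.9.1). The deposited score is a number without a fixed range from the authors' peak caller. The deposited CpG and GC contents are fractions, and TSS distances are in bp.

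Every interval lay inside its GRCm38.p6 chromosome, and the GC fraction recomputed from that genome was within 1e-04 of the deposited one for all but 1 interval of WT muscle, 2 of 3SA muscle, 2 of WT liver and 3 of 3SA liver. Partners were sought over whole lists, by centres within 300 bp, before the 20 kb limit. Shares of genes are over 21900 RefSeq protein-coding genes, matched by Entrez ID or symbol. All 9 members are described, with the best interval of each list and all intervals with a partner in full. Sequences of 300 bp are given for members whose best interval by top percentage holds an ERR element. The 29-base elements and the intervals annotated to neighbouring genes were added after their values were seen. The members and comparison lists were chosen with earlier results of these data known. Partner and motif searches were tested on simulated data. Python 3.11.15, numpy 2.4.6, pandas 2.3.3, pysam 0.24.0, matplotlib 3.10.9 and samtools 1.23.1 were used.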

Additional observations from a re-analysis of the deposited data

Results flagged for a closer look

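The difference between the genotypes in the number of *Klf10* intervals within ±20 kb had opposite signs in the tissues. Taken as 3SA minus WT, it was -3 in muscle, from 3 intervals to 0, and 3 in liver, from 1 to 4. With 1 library per genotype and tissue, this difference was not tested. All 3 WT muscle intervals had scores under 50, and counted at any distance the *Klf10* intervals numbered 5 in WT and 5 in 3SA muscle.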

How the results depend on the processing

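Of 74 alternative values for 16 counts, 41 were within 1.5 times the value reported and 33 were not. With scores of at least 50, the genes bound fell to 2 in WT muscle and 5 in 3SA muscle, and the intervals to 2, 6, 8 and 9 in WT muscle, 3SA muscle, WT liver and 3SA liver. Of all intervals within ±20 kb, 18.2%, 17.7%, 42.3% and 47.4% reached that score, in the same order. Shares of all genes at that score are not given. With scores of at least 100, the genes bound, by annotated name, were 1, 1, 3 and 5. The intervals were 1, 1, 3 and 5 in the same order. Within 5 kb the intervals were 10, 11, 6 and 12, and within 50 kb those of WT liver were 25. With lists of equal length, 3SA muscle had 11 intervals, a number that depends on how tied scores were broken. With centres within 100 bp, the muscle intervals with a partner were 2 in WT and 2 in 3SA, at 2 genes, and 1 gene had a site in all 4 lists. That number was 4 with centres within 1000 bp and 4 with at least 1 shared base. With scores of at least 50 in all lists, the intervals with a partner were 2 in each muscle list and 4 in each liver list, at 2 and 4 genes, and 1 gene had a site in all 4 lists. The score limits, the distance limits and the equal lengths change which intervals enter. The partner distances and the shared-base rule change only how the same intervals are matched. When the background was every gene with an interval in at least 1 list, its shares were 45.1%, 63.5%, 39.2% and 49.2%. No paired analysis was possible because each genotype and tissue has 1 library and no test was run, and no library could be left out. Depth is unknown, so an absent interval does not show absent binding.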

Other observations

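Strong intervals of the same genes lay beyond ±20 kb. Between 20 and 50 kb there were 38, of which 9 had a score of at least 100, and 42 lay farther out. At *Klf15*, muscle had an interval 33866 bp downstream in WT (chr6:90496223-90496762, rank 407, top 1.6%) and 33907 bp downstream in 3SA (chr6:90496254-90496813, rank 545, top 1.08%), and liver had one 24121 bp downstream in WT (rank 1644, top 7.54%) and 23998 bp downstream in 3SA (rank 863, top 2.97%). Each of these ranked ahead of every *Klf15* interval within ±20 kb in its list. At *Hlf*, all 4 lists had an intronic interval 33573 to 33856 bp downstream. It ranked in the top 24.6% in WT muscle, 4.28% in 3SA muscle, 20.7% in WT liver and 8.39% in 3SA liver. Its central 300 bp held the extended ERR element TGAAGGTCA (chr11:90357199-90357207, minus strand) in all 4 lists. At *Klf10*, liver had intervals 46843 bp upstream in WT (top 32.6%) and 46961 bp upstream in 3SA (top 12.6%). The farthest interval inside the limit was that of *Klf15* in WT liver at 20000 bp, and the nearest outside that of *Tef* in WT liver at 20027 bp (rank 6227, top 28.5%).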
